A study of Mus musculus with 1152 samples.

Results

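Tmem119, Cx3cr1, Selplg, Siglech and Slc2a5 are 5 genes whose products sit at the surface of microglia, the resident macrophages of the brain, and which are used to mark microglia in their resting, homeostatic state. These 5 genes of the 48587 in the count table were chosen by name. They were followed in single microglia of wild-type C57BL/6J mice (WT) and of 5xFAD mice, also labelled C57BL/6J, taken from cortex, hippocampus and cerebellum. The 5xFAD line carries transgenes with familial Alzheimer's disease mutations, driven in neurons by the Thy1 promoter, and forms amyloid plaques. The sources used here give neither age nor sex. Regions came from the same mice, per the series text, and the groups held 4 mice each, except 5xFAD hippocampus and 5xFAD cerebellum with 3 each.

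Cells were stained for CD11b, CD45, Ly6C, Ly6G and CD206, sorted as single cells into plates, and read by Smart-seq2, which covers whole transcripts and carries no molecular identifiers. Of 1140 wells with a cell, 1041 had at least 500 genes, at least 10000 gene reads and at most 20% mitochondrial reads and were kept. Reads of the kept cells of 1 mouse and region were added into 1 sum. The 22 sums held 35 to 72 cells and 5696201 to 26669220 reads each. Levels are CPM, a gene's reads relative to the gene reads of its sum, scaled by the trimmed mean of M values (TMM). WT cortex and WT hippocampus lay on 1 plate, WT cerebellum and 5xFAD cortex on another, and 5xFAD hippocampus and 5xFAD cerebellum on the third. A genotype difference and a plate difference therefore cannot be told apart, nor can region and plate where the regions compared lay on different plates. Hippocampus against cortex in WT and hippocampus against cerebellum in 5xFAD were compared within a plate.

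Cx3cr1 is the receptor for fractalkine, a chemokine that neurons carry on their membrane. Selplg encodes PSGL-1, a mucin that binds selectins. Siglech belongs to the Siglec family of lectins and signals through an adaptor. Tmem119 is a transmembrane protein of unsettled function, used to tell microglia from macrophages that enter the brain. Slc2a5 encodes the fructose transporter GLUT5. Microglia near plaques are known to lose such homeostatic genes while they gain others, such as Cst7, Itgax, Clec7a and Lpl, in a state called disease-associated.

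In the GENCODE M21 annotation of GRCm38, Tmem119 lies on chromosome 5, on the minus strand, from 113793729 to 113800516. Selplg lies on the same strand of chromosome 5 from 113818536 to 113832644, so that 18019 bases with 1 other gene model, Gm19931, separate the pair. Siglech is on chromosome 7 from 55768178 to 55778925 and Slc2a5 on chromosome 4 from 150119283 to 150144169, both on the plus strand. Cx3cr1 is on the minus strand of chromosome 9, where its longest model runs from 119901616 to 120069879 and crosses 9 other genes. Its exons share 78 of 4505 bases with exons of other genes, where reads cannot be assigned with certainty. The other 4 members overlap no other gene.

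Promoter windows, 250 bases before to 50 after the start, were matched for 3 of the 5 members in RefSeq's GRCm38.p6 table and are shown 5′ to 3′ on the gene's own strand because MEF2 and PU.1 factors are known regulators of microglial genes. The windows are chr9:120068247-120068546 on the minus strand for Cx3cr1, chr7:55767934-55768233 on the plus strand for Siglech, and chr4:150119094-150119393 on the plus strand for Slc2a5. Capitals mark a match to the letters searched for MEF2, CTA and TAG with 4 free bases between them, called the MEF2 letters below. With those bases free the search is loose, so a match does not show a MEF2 site. Binding was not tested.
Cx3cr1: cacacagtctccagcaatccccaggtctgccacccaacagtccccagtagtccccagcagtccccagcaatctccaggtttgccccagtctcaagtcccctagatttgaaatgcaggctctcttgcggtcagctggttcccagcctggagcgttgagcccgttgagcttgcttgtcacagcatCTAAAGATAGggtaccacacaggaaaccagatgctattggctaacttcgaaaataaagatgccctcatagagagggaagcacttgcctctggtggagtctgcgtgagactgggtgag
Siglech: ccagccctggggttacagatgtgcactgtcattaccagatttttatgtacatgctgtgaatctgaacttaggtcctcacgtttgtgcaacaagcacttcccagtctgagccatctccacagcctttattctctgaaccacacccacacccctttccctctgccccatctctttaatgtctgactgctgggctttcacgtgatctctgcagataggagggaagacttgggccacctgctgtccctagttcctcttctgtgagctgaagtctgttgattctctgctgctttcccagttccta
Slc2a5: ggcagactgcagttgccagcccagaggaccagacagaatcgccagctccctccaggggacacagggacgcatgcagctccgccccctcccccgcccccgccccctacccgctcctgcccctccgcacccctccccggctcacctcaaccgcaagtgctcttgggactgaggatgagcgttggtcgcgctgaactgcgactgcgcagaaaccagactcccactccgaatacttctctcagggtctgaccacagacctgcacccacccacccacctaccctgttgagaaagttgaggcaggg
The MEF2 letters, the same on both strands, occur in the Cx3cr1 window at base 184 and in 3.69% of 32851 windows of that length. The PU.1 letters GAGGAAGT (in 3.20% of windows on either strand), the SMAD letters GTCTAGAC (0.213%) and the PU.1 with IRF letters, GGAA, any base and TGAAA (0.731%), occur in none of the 3 windows.

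The 5 genes were among the most abundant in the table. By mean CPM over the 22 sums, Cx3cr1 ranked 12th, Selplg 15th, Tmem119 23rd, Siglech 39th and Slc2a5 106th of 17358 genes tested. Per kilobase of exon, the order of the median levels was Tmem119 (1701 CPM per kb), Cx3cr1 (1394), Selplg (1336), Siglech (783) and Slc2a5 (243). Cx3cr1 varied least, by 1.41-fold between its lowest and highest sum. Slc2a5 varied most, by 3.72-fold.

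**Figure D1:**
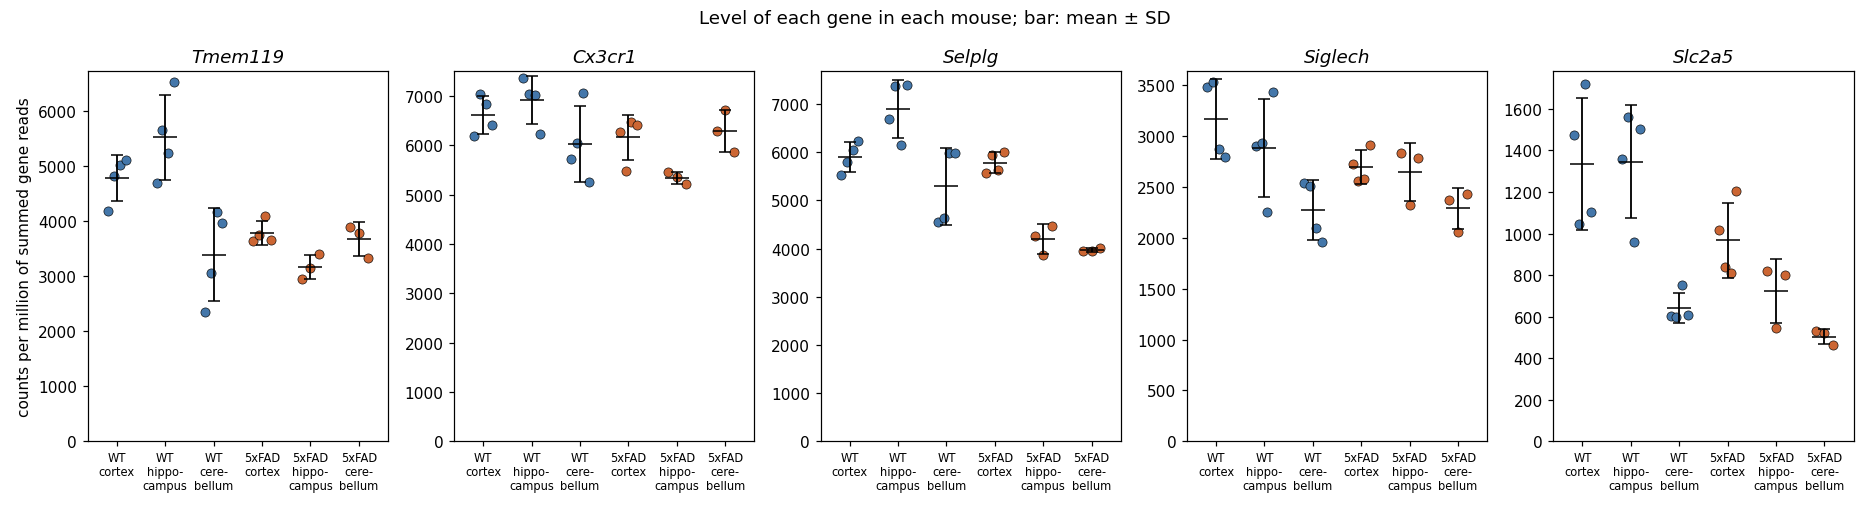
Level of each gene in CPM, on an axis from 0, in each mouse of the 6 groups (WT blue, 5xFAD orange), with the mean ± SD as bars. Tmem119, Cx3cr1, Selplg and Slc2a5 sat lower in every 5xFAD hippocampus mouse than in every WT hippocampus mouse, and Slc2a5 in WT cerebellum lay below WT cortex.

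The labelled cell type was checked against 10 lists of markers of other cells, a well counting as another type where at least 3 markers of a list reached 10 CPM. By this rule 32 kept wells held another type: 27 with border macrophage markers (12 in WT cerebellum, 13 in 5xFAD cerebellum, 1 in WT cortex, 1 in WT hippocampus) and 5 with neutrophil markers, all in 5xFAD cerebellum, 4 of which also had monocyte markers. Neuron, T and NK cell and red blood cell markers reached at most 32.9 CPM in total in any sum. Other lists reached more. The highest totals were 127 CPM for endothelial, 120 for B cell, 118 for oligodendrocyte and 339 for astrocyte markers. Monocyte markers reached 2192 CPM in 1 sum of 5xFAD cerebellum and up to 398 CPM in WT cerebellum. The 5 genes separated these wells to different degrees. In the 27 border macrophage wells the median level was 2565 CPM for Cx3cr1, 439 for Tmem119, 331 for Selplg, 9.38 for Siglech and 0 for Slc2a5, which reached 10 CPM in 0 of 27. In the other 325 kept cerebellum wells the medians were 5738, 3461, 4630, 2197 and 420 CPM in the same order of genes, at a like median depth of 283108 against 301324 reads. The 12 blank wells, with 3109 to 8422 gene reads each, held 7 reads of Tmem119, 4 of Cx3cr1, 3 of Selplg and 0 of Siglech and Slc2a5 in all.

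Whether 5xFAD microglia hold less of these transcripts was asked in each region with edgeR's quasi-likelihood test over all genes and Benjamini-Hochberg adjustment. In hippocampus 4 of the 5 genes fell; in cortex and cerebellum 0 of 5 passed the threshold. Where a level falls in a sum, fewer cells with the transcript and less transcript per cell cannot be told apart; the cells themselves are described further on.

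In hippocampus 4 of 5 genes were lower in 5xFAD, where 0.253% of all genes passed as lower (1.01% in either direction). The median log2 fold change of the 5 was -0.72, against 0.10 over all genes. Mouse values of 4 of the 5 did not overlap between genotypes, which held for 11.01% of all genes.

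Selplg, the selectin ligand, measured 6683, 7382, 6155 and 7402 CPM in the 4 WT mice and 4261, 3872 and 4466 CPM in the 3 5xFAD mice. Every 5xFAD mouse lay below every WT mouse. The level was 1.64-fold lower in 5xFAD (log2 fold change -0.72 ± 0.09, SE; edgeR adjusted p = 0.000112). Tmem119 measured 4687, 5653, 5245 and 6521 CPM in WT and 2956, 3157 and 3395 CPM in 5xFAD. It was 1.74-fold lower, again without overlap (log2 fold change -0.80 ± 0.14; edgeR adjusted p = 0.00366). Both genes passed without any 1 of the 7 mice, with edgeR adjusted p up to 0.00485 for Selplg and 0.0393 for Tmem119.

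Slc2a5, the fructose transporter, measured 1360, 1561, 958 and 1505 CPM in WT hippocampus and 818, 543 and 802 CPM in 5xFAD. It was 1.87-fold lower (log2 fold change -0.90 ± 0.20; edgeR adjusted p = 0.0241). Its lowest WT mouse, at 958 CPM, came close to the highest 5xFAD mouse. Cx3cr1, the fractalkine receptor, measured 7371, 7044, 7012 and 6229 CPM in WT and 5448, 5351 and 5213 CPM in 5xFAD. This was the smallest of the 4 differences, 1.30-fold (log2 fold change -0.37 ± 0.09; edgeR adjusted p = 0.0371). The calls of both genes were fragile. Slc2a5 passed in 2 of 7 fits that left out 1 mouse (without 5xFAD mouse 1 or WT mouse 3; edgeR adjusted p up to 0.232), and Cx3cr1 in 1 of 7 (without WT mouse 4; up to 0.173). In fits of the 2 hippocampus groups alone, the edgeR adjusted p was 0.121 for Slc2a5 and 0.114 for Cx3cr1. Slc2a5 missed without plate columns 1 and 2 (edgeR adjusted p = 0.0866), and Cx3cr1 with those columns as deposited (0.096). With the mouse number as a replicate block, the Cx3cr1 difference was -0.30 with a limma adjusted p of 0.357.

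Siglech did not pass in the sums. It measured 2899, 2935, 2251 and 3428 CPM in WT hippocampus and 2836, 2323 and 2784 CPM in 5xFAD, and the genotypes overlapped. The log2 fold change was -0.12 ± 0.13 (95% interval -0.37 to 0.13; edgeR adjusted p = 0.81), so a fall as large as that of Selplg lay outside the interval. In limma on means of log2(CPM + 1) over cells, which weights each cell equally, Siglech passed too, with a difference of -1.02 (limma adjusted p = 0.0188).

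In cortex 0 of 5 genes passed by edgeR, where 0.294% of all genes passed, and 0 by DESeq2 or limma. DESeq2 passed 473 of 17358 genes there. An unadjusted edgeR p under 0.05 was found for 2 of the 5 genes and for 2039 of all 17358. Tmem119 measured 4188, 4824, 5015 and 5108 CPM in WT and 3639, 3753, 4100 and 3660 CPM in 5xFAD, without overlap (log2 fold change -0.34 ± 0.13; edgeR adjusted p = 0.392). Slc2a5 measured 1473, 1047, 1720 and 1103 CPM in WT and 1017, 838, 810 and 1202 CPM in 5xFAD, with overlap (-0.47 ± 0.18; edgeR adjusted p = 0.392). Selplg lay at 5519 to 6233 CPM in WT and 5567 to 6000 CPM in 5xFAD (-0.03 ± 0.09). Cx3cr1 (-0.10 ± 0.08) and Siglech (-0.23 ± 0.12) did not pass either. Mouse values did not overlap between the genotypes for 5.71% of all genes in cortex.

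In cerebellum 0 of 5 genes passed by edgeR, where 0.0461% of all genes passed. An unadjusted edgeR p under 0.05 was found for 1549 of all 17358 genes and for 1 of the 5. That gene was Selplg, with 4562, 4639, 5985 and 5989 CPM in WT and 3946, 3943 and 4013 CPM in 5xFAD. Its 5xFAD mice lay below every WT mouse, and its log2 fold change was -0.42 ± 0.09 (edgeR adjusted p = 0.178). The DESeq2 adjusted p was 0.000387, where DESeq2 passed 324 of 17358 genes and edgeR 8. With the mouse number as a block, the limma adjusted p was 0.0125. Slc2a5 did not overlap either, with 605, 599, 750 and 608 CPM in WT and 529, 522 and 462 CPM in 5xFAD (-0.34 ± 0.20; edgeR adjusted p = 0.593). Tmem119 (0.12 ± 0.14), Cx3cr1 (0.06 ± 0.09) and Siglech (0.01 ± 0.13) had overlapping mice. Over all genes, 6.56% had no overlap between the genotypes in cerebellum. The sums of 5xFAD cerebellum held 268 to 543 CPM of border macrophage markers in total and those of WT cerebellum 8.24 to 668 CPM. Neutrophil markers, which lay between 369 and 853 CPM in total in the other groups, reached 7395 CPM in 1 5xFAD cerebellum sum. The totals of the other groups do not count neutrophils. S100a8, S100a9 and Retnlg of this list stood at 0 in WT cortex and WT hippocampus, and in WT hippocampus the whole total was Csf3r. Without the wells of other cell types, Selplg differed by -0.37 in cerebellum (edgeR adjusted p = 0.188), and in hippocampus the same 4 genes passed.

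**Figure D2:**
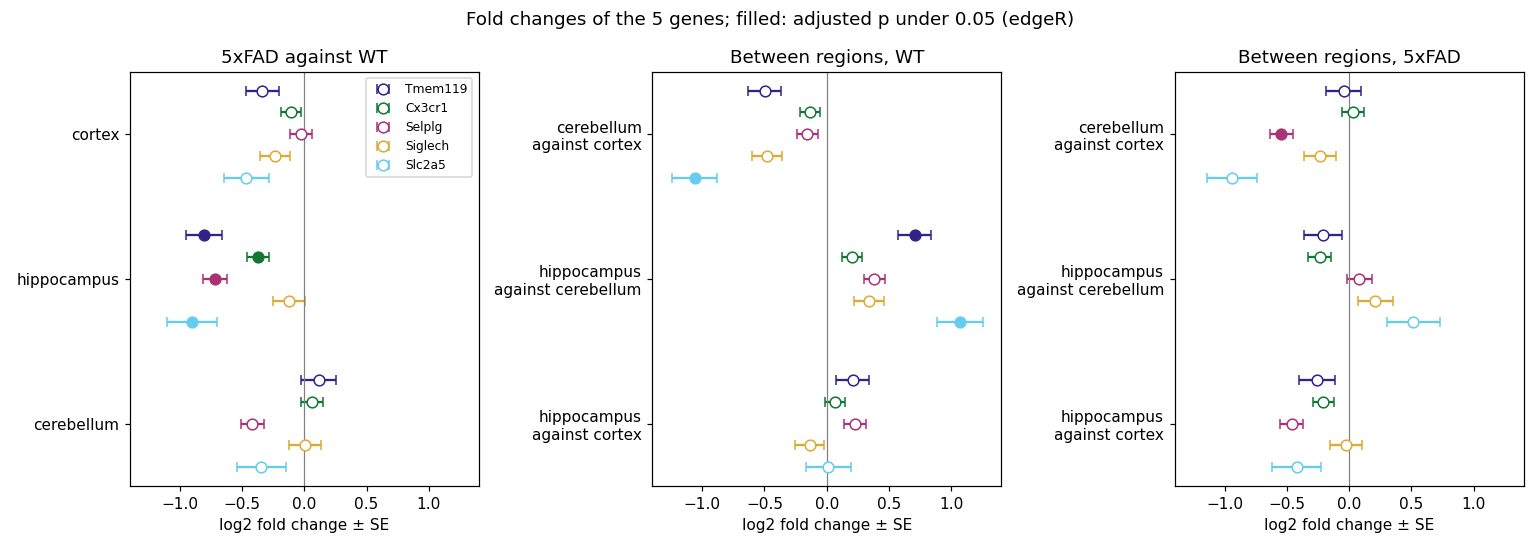
Log2 fold changes ± SE from edgeR for 5xFAD against WT in each region (left), and between regions in WT (middle) and 5xFAD (right); filled points passed at an adjusted p of 0.05. In hippocampus 4 of 5 genes were lower in 5xFAD, while in WT Slc2a5 was lower in cerebellum than in both other regions.

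Whether the genotype difference itself depended on region was tested as an interaction. The genotypes of each region lay on a different pair of plates, so such a dependence cannot be told apart from plate. Of the 5 genes, Selplg passed for hippocampus against cortex, where 0.0461% of all genes passed and 0.00576%, or 1 gene, as lower: its fall was larger in hippocampus by a log2 difference of -0.69 ± 0.13 (edgeR adjusted p = 0.0442). It passed in 6 of 12 other settings, as Tmem119 did for hippocampus against cerebellum. The Selplg call was kept in 1 of 15 fits that left out 1 mouse (without 5xFAD hippocampus mouse 3), with edgeR adjusted p from 0.0472 to 0.302. For hippocampus against cerebellum, where 0.3% of all genes passed, 0 of 5 genes passed by edgeR. By DESeq2 1 passed, as did 534 of all 17358 genes. An unadjusted edgeR p under 0.05 was found for 3 of the 5 and for 1979 of all genes. Tmem119 was nearest, with a log2 difference of -0.92 ± 0.20 (edgeR adjusted p = 0.0513; from 0.0234 to 0.192 when 1 mouse was left out, passing without WT cerebellum mouse 3 or 4 or WT hippocampus mouse 1). For cortex against cerebellum, where 0.0807% of all genes passed by edgeR, 0 of 5 passed by edgeR or DESeq2. DESeq2 passed 359 of all genes there. An unadjusted edgeR p under 0.05 was found for 2 of the 5 and for 1709 of all genes.

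The level also differed between regions in WT mice, where microglia of the cerebellum had the lowest mean of each of the 5 genes. WT cerebellum lay on another plate than WT cortex and WT hippocampus, so region and plate cannot be told apart in these comparisons. Slc2a5 fell 2.09-fold from cortex to cerebellum (log2 fold change -1.06 ± 0.18; edgeR adjusted p = 0.00713), the 1 member of 5 to pass, where 0.277% of all genes passed (0.127% as lower). The 605, 599, 750 and 608 CPM of cerebellum all lay below the lowest cortex mouse at 1047 CPM. Such a lack of overlap held for 4.64% of all genes. Siglech, at 2542, 2511, 2100 and 1955 CPM in cerebellum and 3478, 3532, 2869 and 2789 CPM in cortex, did not overlap either but did not pass (-0.48 ± 0.12; edgeR adjusted p = 0.123). Tmem119 was -0.50 ± 0.13 in the same comparison (edgeR adjusted p = 0.142). Both passed by DESeq2, with adjusted p of 0.00882 for Siglech and 0.0115 for Tmem119. DESeq2 passed 562 of the 17358 genes in this comparison, against 48 by edgeR.

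Hippocampus against cerebellum in WT gave 2 of 5 genes, both higher in hippocampus, where 0.374% of all genes passed (0.184% as higher). Slc2a5 differed by 1.07 ± 0.18 (edgeR adjusted p = 0.00593). Tmem119, at 2350, 3066, 4163 and 3974 CPM in cerebellum against 4687 to 6521 CPM in hippocampus, differed by 0.71 ± 0.13 (edgeR adjusted p = 0.0132). Selplg had the value 0.38 ± 0.09 (edgeR adjusted p = 0.0507). These regions lay on different plates. The Slc2a5 calls held without any 1 of the 8 mice; Tmem119 missed without WT cerebellum mouse 2 or WT hippocampus mouse 4 (edgeR adjusted p up to 0.0752). In fits of the compared groups alone, Slc2a5 had an edgeR adjusted p of 0.0839 against cortex and 0.0652 against hippocampus, and Tmem119 0.265. With the mouse number as a block, limma gave adjusted p of 0.0992 and 0.035 for Slc2a5 and 0.0737 for Tmem119.

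Border macrophage wells, 0 of which reached 10 CPM of Slc2a5, made up 12 of the 162 kept WT cerebellum cells. Without the wells of other cell types, Slc2a5 still differed from cortex by -0.98 (edgeR adjusted p = 0.00912) and from hippocampus by 0.98 (edgeR adjusted p = 0.00979). Hippocampus against cortex in WT, on 1 plate, gave 0 of 5 genes by edgeR, DESeq2 and limma. By edgeR 0% of all 17358 genes passed, and by DESeq2 301 genes did. An unadjusted edgeR p under 0.05 was found for 1 of the 5 and for 1827 of all genes. The differences of the 5 genes lay between -0.14 and 0.23.

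In 5xFAD mice Selplg was the gene that passed between regions. 5xFAD cortex lay on another plate than 5xFAD hippocampus and cerebellum, so comparisons with cortex cannot be told apart from plate. Cerebellum was lower than cortex by 0.54 ± 0.09 on the log2 scale (edgeR adjusted p = 0.0323), with 3946, 3943 and 4013 CPM against 5567, 5950, 5624 and 6000 CPM. It was the 1 member of 5 to pass, where 0.0576% of all genes passed (0.0518% as lower). Each of the 7 fits without 1 mouse lost the call (edgeR adjusted p from 0.102 to 0.456), as did the fit without wells of other cell types (0.182). Slc2a5 had -0.94 ± 0.20 in the same comparison (edgeR adjusted p = 0.132). Hippocampus against cortex gave 0 of 5 by edgeR, where 0.0346% of all genes passed. DESeq2 passed 1 of the 5 and 244 of all 17358 genes. An unadjusted edgeR p under 0.05 was found for 3 of the 5 and for 1444 of all genes. Selplg had -0.46 ± 0.09 (edgeR adjusted p = 0.106) without overlap, which held for 8.08% of all genes. Hippocampus against cerebellum, on 1 plate, gave 0 of 5 by edgeR and DESeq2. There 0.219% of all genes passed by edgeR and 349 genes by DESeq2. An unadjusted edgeR p under 0.05 was found for 2 of the 5 and for 1353 of all genes.

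Over the 6 groups the order of the mean levels differed between genes. Tmem119, Cx3cr1, Selplg and Slc2a5 were highest in WT hippocampus, with means of 5527 ± 772, 6914 ± 485, 6905 ± 602 and 1346 ± 272 CPM (SD, n = 4). Siglech was highest in WT cortex, at 3167 ± 392 CPM (n = 4). Tmem119 and Cx3cr1 were lowest in 5xFAD hippocampus, at 3169 ± 219 and 5338 ± 118 CPM (n = 3), and Selplg and Slc2a5 in 5xFAD cerebellum, at 3967 ± 39.4 and 504 ± 36.7 CPM (n = 3). Siglech was lowest in WT cerebellum, at 2277 ± 295 CPM (n = 4). Some neighbours in these orders did not differ beyond their spread: for Tmem119, the means of 5xFAD cortex (3788 ± 214 CPM), 5xFAD cerebellum (3671 ± 306 CPM) and WT cerebellum (3388 ± 842 CPM) lay within 1 SD of the last.

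Most single cells carried the 5 transcripts together. All 5 reached 10 CPM in 773 of 1041 cells (74.3%), and at least 4 in 93.1%. The share with all 5 was 88.6% in WT cortex and 92.9% in WT hippocampus but 58.0% in WT cerebellum. In 5xFAD it was 83.6% in cortex, 63.0% in hippocampus and 58.0% in cerebellum. These shares were taken at unequal depth, with median reads per cell from 198492 in WT cortex to 343580 in 5xFAD cerebellum.

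To compare shares at 1 depth, each cell was thinned to 50000 gene reads, which left out 100 of the 1041 cells. The loss was uneven: 34 cells of WT cortex and 11 of 5xFAD cortex, 5 and 19 of hippocampus, and 25 and 6 of cerebellum. Tmem119, Cx3cr1, Selplg and Siglech were detected with at least 1 read in 90.7% to 100% of thinned cells in every group, as means over mice. Slc2a5 was found in fewer cells. In WT hippocampus it was seen in 93.2%, 95.3%, 82.6% and 95.5% of the cells of the 4 mice, and in 5xFAD hippocampus in 72.1%, 72.0% and 78.6%. The mice did not overlap, with means of 91.6% ± 6.12 (SD, n = 4) and 74.2% ± 3.77 (SD, n = 3). The exact two-sided permutation test over mice gave p = 0.0571, the smallest that 4 against 3 mice allow, and 0.286 adjusted over 15 such tests (5 genes in 3 regions). In cortex the share was 95.7% in WT and 89.0% in 5xFAD (exact permutation p = 0.229), and in cerebellum 65.8% and 59.2% (exact permutation p = 0.171). None of the 15 tests passed after adjustment, but with so few mice none could. The smallest possible p was 0.0571 for 4 against 3 mice and 0.0286 for 4 against 4. These tests therefore cannot decide whether the shares differ. Over all kept cells without thinning, the Slc2a5 share was 89.5% in WT and 90.2% in 5xFAD cortex, so the cortex gap was not seen there. It was 94.0% and 71.0% in hippocampus and 63.3% and 62.5% in cerebellum. Smart-seq2 reads are not independent molecules, and in the 5 neutrophil wells Slc2a5 had 0 reads, while 7 of 27 border macrophage wells had at least 1 read of it.

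**Figure D3:**
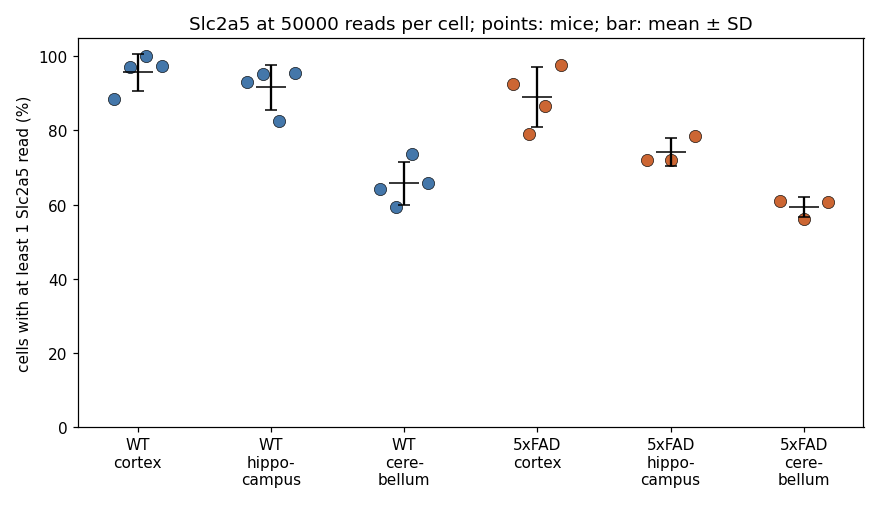
Share of cells with at least 1 Slc2a5 read after each cell was thinned to 50000 reads; points are mice, bars the mean ± SD of each group, and the axis runs from 0. WT cerebellum (65.8%) and 5xFAD cerebellum (59.2%) lay below cortex and hippocampus of their genotype, and 5xFAD hippocampus (74.2%) below WT hippocampus (91.6%).

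In the middle of the distribution, the median cell of 5xFAD hippocampus had a log2(CPM + 1) of 10.73 for Tmem119, and the median WT hippocampus cell 12.38. The lower tail differed more: the tenth percentile of cells was 4.80 in 5xFAD and 11.05 in WT. For Selplg the medians were 11.45 and 12.68, and the tenth percentiles 6.71 and 11.66. For Siglech the medians were 10.96 and 11.40, and the tenth percentiles 7.09 and 9.63. By mouse, the Tmem119 medians ran from 10.49 to 11.04 in 5xFAD and from 12.23 to 12.50 in WT.

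The cells were next divided by a panel of 10 disease-associated genes that holds none of the 5 members (Cst7, Lpl, Itgax, Clec7a, Axl, Igf1, Csf1, Ch25h, Spp1 and Gpnmb), by how many reached 10 CPM in a cell. At least 3 did so in 55 of 183 5xFAD cortex cells, 86 of 154 hippocampus cells and 38 of 193 cerebellum cells. In WT the numbers were 3 of 167, 2 of 182 and 12 of 162. Cells with none numbered 76, 30 and 80 in 5xFAD. The panel was put together with results of these cells known, so the levels by panel class that follow are a description without a test.

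Within 5xFAD mice, every one of the 5 genes was lower in cells with at least 3 panel genes than in cells with none, in each of the 10 sums of a mouse and region (50 of 50 pairs). Among the 2657 tested genes whose mean log2 CPM was 6 or more, 4.03% were lower in all 10 (0.818% of all tested genes). Levels here are CPM without TMM scaling. In hippocampus Tmem119 measured 1195, 1801 and 1437 CPM in cells with at least 3 panel genes and 7055, 5406 and 7314 CPM in cells with none, a 4.46-fold difference of the means. Cells with 1 or 2 panel genes lay between, at 2389, 4220 and 4303 CPM. The Tmem119 level stepped down over the 3 classes in 10 of 10 sums.

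The depth of the fall ranked the genes. Over the 10 sums the median log2 difference between both ends was -1.62 for Tmem119, -1.14 for Selplg, -0.91 for Cx3cr1 and -0.43 for Siglech. For Slc2a5 it was -1.30 over 9 sums, with the remaining sum, the 7 cells of 5xFAD cerebellum mouse 2, listed at 0. Siglech stepped down over the 3 classes in 2 of 10 sums, and its mean was 2705 CPM in cells with 1 or 2 panel genes and 2724 CPM in cells with none. Selplg stepped down in 8 of 10, and Cx3cr1 and Slc2a5 in 7 of 10 each. Hippocampal cells of the high class had a median depth of 344428 reads and those without panel genes 284886. Without the wells of other cell types, the 50 pairs were again lower in the high class, an alternative added after the data were seen.

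**Figure D4:**
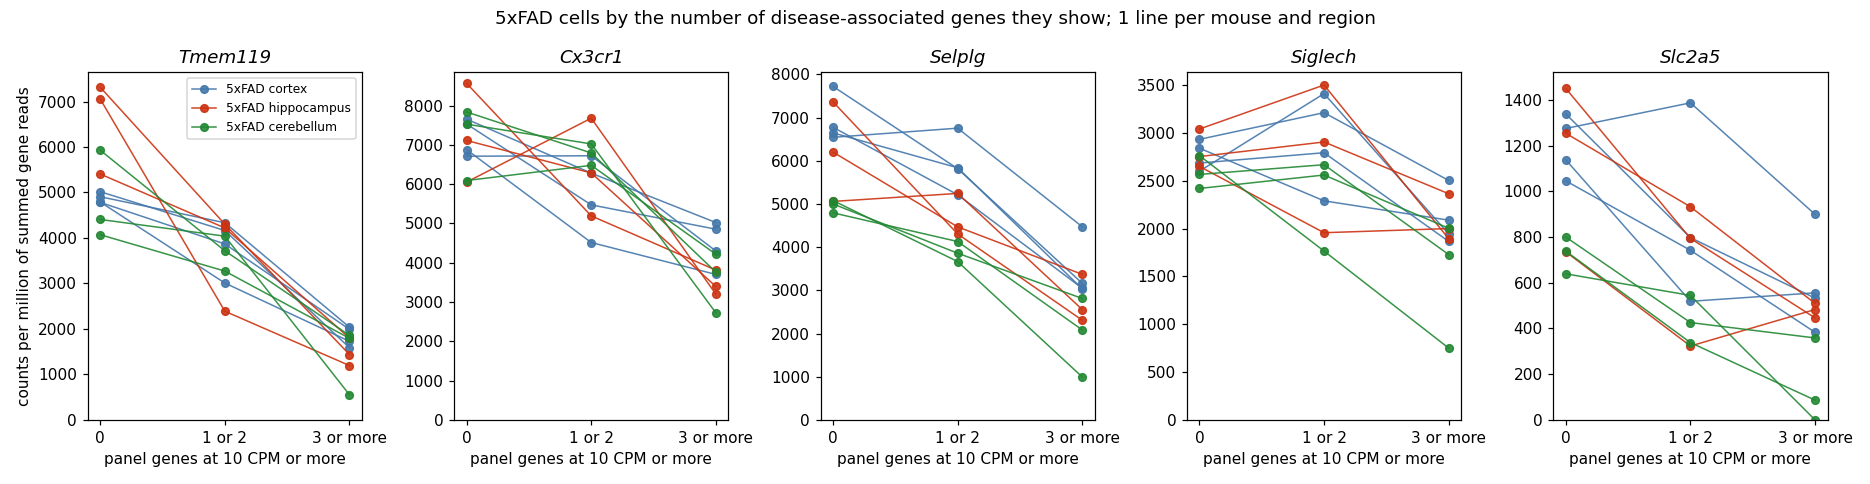
CPM of each gene in 5xFAD cells with 0, 1 or 2, and 3 or more panel genes, 1 line per mouse and region (cortex blue, hippocampus red, cerebellum green), on axes from 0. Each line ends below where it starts; Tmem119 falls at both steps in 10 of 10 lines and Siglech in 2 of 10.

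The genotypes were also compared among cells that lacked the panel genes by summing only those cells, 8 to 41 per mouse and region, in the same edgeR fit of 13735 genes. In hippocampus this left 30 of 154 5xFAD cells and 152 of 182 WT cells. Cells with at least 3 panel genes were lower for all 5 genes, so a smaller difference was built into this selection. The p-values are therefore given as a description and cannot decide what made up the difference over all cells. In hippocampus 0 of 5 genes passed, where 0.32% of all genes did. An unadjusted p under 0.05 was found for 0 of the 5 and for 1708 of the 13735 genes. Tmem119, which was lower over all hippocampal cells, measured 6718 ± 961 CPM in 5xFAD (SD, n = 3) and 5661 ± 502 CPM in WT (n = 4), a log2 fold change of 0.25 ± 0.14 (edgeR adjusted p = 0.471). Selplg had -0.18 ± 0.10 (edgeR adjusted p = 0.47), Slc2a5 -0.26 ± 0.22, Siglech -0.07 ± 0.15 and Cx3cr1 0.04 ± 0.12. The mice overlapped for all 5 genes. The median of all genes in this comparison was -0.20, and with DESeq2 size factors it was -0.02, at which Tmem119 had 0.43 (edgeR adjusted p = 0.214) and Selplg 0.01. When a panel gene counted from 1 read, fewer cells were left, the median of all genes was -0.48, and 0 of 5 genes passed. There Selplg had -0.36 (edgeR adjusted p = 0.0811), Siglech -0.44 (0.301), Cx3cr1 -0.41 (0.338), Slc2a5 -0.13 and Tmem119 0.10, with an unadjusted p under 0.05 for Selplg and Siglech.

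In cortex 0 of 5 genes passed among cells without panel genes, where 0.0218% of all genes passed. Log2 fold changes ran from -0.27 for Siglech to 0.14 for Selplg. An unadjusted p under 0.05 was found for 0 of the 5 and for 895 of the 13735 genes. In cerebellum 0 of 5 passed (0.00728% of all genes), from -0.24 for Selplg to 0.34 for Tmem119. Here 2 of the 5 had an unadjusted p under 0.05, as had 1147 of the 13735 genes. With 30 such cells in 5xFAD hippocampus, these fits carry wider errors than those over all cells, and a p above the threshold does not show equal levels.

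**Figure D5:**
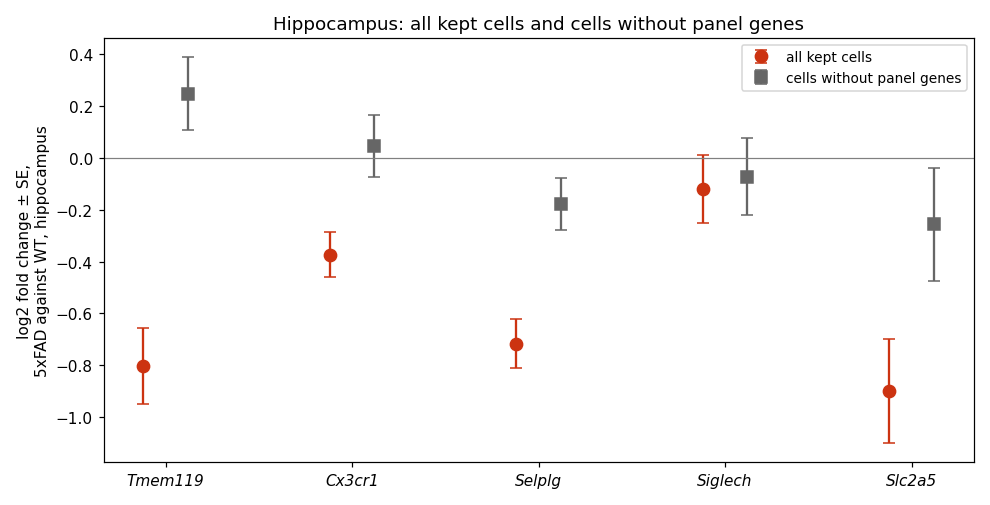
Log2 fold change ± SE of 5xFAD against WT in hippocampus for all kept cells (circles) and for cells in which none of the 10 panel genes reached 10 CPM (squares). For all cells, Tmem119 stood at -0.80 and Selplg at -0.72; for cells without panel genes they stood at 0.25 and -0.18.

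Across the 22 sums, Tmem119 and Selplg, the neighbours on chromosome 5, varied together with a Pearson correlation of log2 CPM of 0.76 (Spearman 0.78), and still with 0.77 after each group's mean was removed. For Selplg with Slc2a5 the values were 0.80 and 0.45, for Siglech with Slc2a5 0.73 and 0.39, and for Tmem119 with Slc2a5 0.69 and 0.15. In single cells Tmem119 and Selplg had a correlation of 0.63 to 0.72 within each of the 6 groups. Pairs on different chromosomes reached like values in some groups: 0.40 to 0.74 for Tmem119 with Cx3cr1, 0.34 to 0.65 for Cx3cr1 with Selplg and 0.39 to 0.63 for Selplg with Siglech. Siglech with Slc2a5 ran from 0.29 to 0.44. These are descriptions over points that share plates and depth.

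Among 2574 well-expressed genes, the 5 most like each member over the 22 sums were named by Pearson correlation of log2 CPM. For Tmem119 they were Rhob (0.88), Adgrg1 (0.86), P2ry12 (0.83), Pcbp1 (0.81) and Rtn1 (0.81). For Selplg they were Crybb1 (0.85), Adgrg1 (0.82), Ltc4s (0.77), Abi3 (0.75) and Rhob (0.74). Slc2a5 followed Scoc (0.90), P2ry12 (0.87), Fscn1 (0.87), Ltc4s (0.85) and Cd164 (0.84). Cx3cr1, with Casp8 first (0.76), and Siglech, with Rgs10 first (0.75), had looser company and shared none of their first 5 with the others.

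Other homeostatic genes were followed in the same way. Of 40 further homeostatic gene names, 39 were in the count table, and all 39 were tested. In hippocampus 6 were lower and 2 higher in 5xFAD, where 1.01% of all genes passed (0.253% as lower), with a median log2 fold change of -0.42 against 0.10 over all genes. P2ry12, a purinergic receptor by which microglia sense nucleotides, fell by 1.07 on the log2 scale (SE 0.09; edgeR adjusted p = 3.21e-07). Crybb1 (-2.06 ± 0.28) and Ecscr (-1.36 ± 0.23) were lower too, and Ctss, a lysosomal protease, rose (0.56 ± 0.08), as did Serinc3 (0.40 ± 0.09), which was named after its value was seen. In cortex, where 0.294% of all genes passed, 3 were lower (P2ry12 -0.50 ± 0.08, Cd164 -0.81 ± 0.15, Crybb1 -1.18 ± 0.24) and Serinc3 higher (0.63 ± 0.08). In cerebellum, where 0.0461% of all genes passed, Cst3 was lower (-0.56 ± 0.10) and Serinc3 higher (0.77 ± 0.09). Between WT regions, 7 of the 39 were lower in cerebellum than in cortex, where 0.127% of all genes passed as lower. In hippocampus 10 of the 39 were higher than in cerebellum, where 0.184% of all genes passed as higher.

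The molecules that these surface proteins work with were also followed. Of 15 ligands, adaptors and relatives, 11 were tested. Cx3cl1, which encodes the fractalkine ligand, had 86 reads over all sums, and the selectin genes Selp and Sele had 17 and 71, so none of the 3 was tested. Tyrobp, the adaptor DAP12 through which Siglech signals, rose in 5xFAD hippocampus by 1.59 ± 0.16 on the log2 scale (edgeR adjusted p = 3.23e-06) and in cortex by 0.77 ± 0.15 (edgeR adjusted p = 0.0206). In cerebellum its value was -0.37 ± 0.16 (edgeR adjusted p = 0.552). By edgeR, Siglech itself passed in none of these 3 regions. No other tested partner gene passed in a genotype comparison. Of the fructose and glucose transport genes, Slc2a1 (1.24 ± 0.40; edgeR adjusted p = 0.214), Slc2a8 (-0.35 ± 0.30) and the fructokinase gene Khk (-0.85 ± 0.61) did not pass in hippocampus, where Slc2a5 fell.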

How the data were processed

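The data are raw read counts per gene and well, as deposited by the authors. Per the submitters' processing notes, STAR 2.5.2b, featureCounts 1.5.1 and the build GRCm38 were used; the sources used here name no annotation, strand setting or filter. In 96 deposited columns, those of plate columns 1 and 2, the counts also held other wells of the same plate row (wells 10 to 19, and 20 to 24), which were subtracted, leaving 0 negative values; 68 of these wells were kept. The table named cells by plate and well, matched to sample titles. The 92 spike-ins stayed out of library sizes.

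Counts of kept cells were summed per mouse and region and tested with edgeR 4.0.16 in R 4.3.3 (glmQLFit over 22 sums, TMM, filterByExpr, 17358 genes, adjusted p under 0.05). The p-values measure the spread between mice as the labels number them. DESeq2 1.42.0, limma 3.58.1, other filters, cell sets and left-out mice were alternatives. Doublets were not called. Scripts were tested on simulated data. Fold changes carry standard errors. Named genes were the 5 members, the 4 list genes with the smallest p per genotype comparison, and partner genes; exceptions are marked. The members and lists were chosen with earlier results of these data known.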

Additional observations from a re-analysis of the deposited data

Results flagged for a closer look

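Slc2a5 in WT cerebellum had 1 mouse apart from the rest: mouse 3 stood at a log2 CPM of 9.55 (750 CPM), while the other 3 lay at 599 to 608 CPM. The gap took up 0.934 of the group's range, above Dixon's 95% limit for 4 samples. It was the 1 such case among 20 gene and group combinations with 4 mice, and chance alone gives about 1 in 20. The WT cerebellum group without this mouse is among the fits that left out 1 mouse, and Slc2a5 passed against cortex and hippocampus in each of those.

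Selplg differed between regions in its genotype difference: the log2 fold change of 5xFAD against WT was lower in hippocampus than in cortex by 0.69, with the interaction at -0.69 (edgeR adjusted p = 0.0442). As given above, 14 of the 15 fits without 1 mouse lost this call, and the interaction cannot be told apart from plate.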

How the results depend on the processing

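Over the single-gene values named in the text, 307 values under other settings kept direction and side of the threshold, 28 became called, 21 lost their call and 16 turned direction. The Tmem119 and Selplg calls in hippocampus held under each of 12 other settings. Counts of the 5 genes past the threshold moved by over 1.5 times as follows. In fits of the compared groups alone, hippocampus between genotypes gave 2 (4 in the reported fit), and cerebellum against cortex and hippocampus against cerebellum in WT gave 0 each (1 and 2). A stricter cell filter gave 2 in hippocampus between genotypes, and the smaller move to 3 came without plate columns 1 and 2 and with them as deposited. DESeq2's Wald test and no filter on low counts gave 3 for hippocampus against cerebellum in WT. Both settings also called more of all genes there: 716 of 17358 and 233 of 38310, against 65 of 17358 in the reported fit. DESeq2's Wald test gave 1 in cerebellum between genotypes, 3 for cerebellum against cortex in WT, and in 5xFAD 1 for hippocampus and 2 for cerebellum against cortex. No filter on low counts gave those same 4 counts. For the genotype difference of hippocampus against cerebellum (0), DESeq2's Wald test, a stricter count filter, thinned cells and leaving out wells of other cell types gave 1 each, and no filter gave 2. For that of hippocampus against cortex (1), DESeq2 size factors, the stricter count filter, thinned cells, the stricter cell filter, and leaving out or not correcting plate columns 1 and 2 gave 0 each. Thinned cells gave 1 for hippocampus and 2 for cerebellum against cortex in 5xFAD. The latter count was 0 without wells of other cell types and with plate columns 1 and 2 left out or as deposited. In limma on cell means of log2(CPM + 1), which weights each cell equally, the counts were 2 and 5 in WT (cerebellum against cortex, hippocampus against cerebellum), 4 and 3 in 5xFAD (hippocampus and cerebellum against cortex), and 4 for each of both genotype differences with hippocampus. The cause of these moves was not tested.

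With the mouse number as a replicate block in limma, the counts were 1 in cerebellum between genotypes, 0 and 1 for cerebellum against cortex and hippocampus against cerebellum in WT, and 1 and 2 for hippocampus and cerebellum against cortex in 5xFAD. Same-numbered sums did not deviate together, with correlations from -0.0405 to 0.0495 over 21 pairs, so the numbers were not taken as pairs.

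With 1 mouse left out, the counts ran from 2 to 3 for hippocampus between genotypes, 1 to 3 for hippocampus against cerebellum in WT, 0 to 0 for cerebellum against cortex in 5xFAD, and 0 to 1 and 0 to 2 for the genotype differences of hippocampus against cortex and against cerebellum.

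Each named value that turned direction had not passed in the reported fit; some regional and interaction values that the text does not name turned as well. Selplg in cortex was 0.0154 with no filter, 0.00702 without plate columns 1 and 2, 0.54 in cell means, and -0.0579 to 0.0146 without 1 mouse. Cx3cr1 in cortex was 0.17 in cell means. Siglech in cerebellum was -0.0261 with DESeq2 size factors, -0.0260 in DESeq2's test, -0.0153 with the stricter count filter, -0.0366 in thinned cells and -0.0592 to 0.12 without 1 mouse. Tmem119 in cerebellum was -0.0486 with the block, -0.00477 with plate columns as deposited, and -0.0245 to 0.23 without 1 mouse. Siglech in WT hippocampus against cortex was 0.0556 in cell means. In hippocampal cells without panel genes, Selplg was 0.00688 and Siglech 0.111 with DESeq2 size factors. Cx3cr1 there was -0.414 with 1 read and -0.0103 with 50 CPM in place of 10 CPM, and -0.121 to 0.169 without 1 mouse; Siglech there ran from -0.164 to 0.0142 without 1 mouse. The Slc2a5 share in cortex was 0.644 percentage points higher in 5xFAD with no thinning. Reads are not molecules, and 30 panel-negative cells in 5xFAD hippocampus limit what that comparison can show.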
